A study of Mus musculus with 6 samples.

Results

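AMPA receptors are the glutamate-gated channels that carry most fast excitatory transmission in the brain, and 10 of their genes are described here. They are the 4 pore-forming subunit genes Gria1 to Gria4 (GluA1 to GluA4) and 6 auxiliary genes. The auxiliary genes are the transmembrane AMPA receptor regulatory protein (TARP) genes Cacng2, Cacng3 and Cacng8, the cornichon genes Cnih2 and Cnih3, and Shisa6. They were chosen by name from a deposited table of 31838 genes. All 10 were present and passed the filter on low counts that left 20428 genes. The table covers polyadenylated RNA from the hippocampus of wild type C57BL/6 mice aged 4 months. The 3 control libraries came from mice given corn oil, and the 3 treated libraries from mice given BBP at 50 mg/kg/day, where BBP stands for butyl benzyl phthalate, a compound that softens plastics. The series title links BBP with impaired cognition, and the comparison asks how hippocampal transcripts of treated mice differed from those of controls. The labels do not say that each library is a separate animal, so the p-values describe variation among these libraries only, which may be technical.

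AMPA receptors are tetramers, and their subunit make-up sets their calcium permeability and gating. GluA2 makes the channel nearly impermeable to calcium because its mRNA is edited by the adenosine deaminase ADAR2 (gene Adarb1) at a codon of the pore loop called the Q/R site. In the adult hippocampus, receptors of GluA1 with GluA2 and of GluA2 with GluA3 predominate in pyramidal neurons, while GluA4 is prominent in interneurons. TARPs, cornichons and Shisa proteins bind these receptors, help them reach the membrane and the synapse, and slow or speed their closing. The TARP gamma-8, the product of Cacng8, is known for its abundance in the hippocampus.

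The pore loop is shown first because it holds the Q/R site. The 45 bases below are the coding strand around the Q/R site in GENCODE M21 transcripts (GRCm38, the build also called mm10), each within 1 exon, with the codon of the site in capitals. They lie at chr11:57243073-57243117 (plus strand, exon 11 of 16) for Gria1, chr3:80706890-80706934 (minus strand, exon 11 of 16) for Gria2, chrX:41610244-41610288 (plus strand, exon 11 of 16) for Gria3 and chr9:4464116-4464160 (minus strand, exon 12 of 17) for Gria4.
Gria1: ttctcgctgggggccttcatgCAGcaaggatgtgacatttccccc
Gria2: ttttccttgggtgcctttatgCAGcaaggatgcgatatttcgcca
Gria3: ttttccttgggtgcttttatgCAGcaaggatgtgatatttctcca
Gria4: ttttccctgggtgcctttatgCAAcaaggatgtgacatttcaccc
The genome encodes glutamine at this site in all 4 genes, by CAG in Gria1 to Gria3 and by CAA in Gria4. Gria2 and Gria3 shared 42 of the 45 bases, and Gria1 shared 36 with each of them. A count table holds no base calls, so editing of Gria2 was not analysed here.

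BBP library 1 stood apart from the other 5 in its regional markers and has to be named before the results. In BBP library 1 the median of 8 dentate granule neuron markers lay 0.95 below the corn oil mean on the log2 scale of library-scaled counts (CPM), and those of 6 CA1 and 7 CA2 and CA3 pyramidal neuron markers lay 0.49 and 0.82 below it. In the same library the medians of 8 isocortex markers and 10 striatal medium spiny neuron markers lay 1.14 and 1.68 above it. The summed level of the striatal markers was 188 FPKM (fragments per kilobase of gene length, scaled to library size) there, against 91.8 FPKM in corn oil library 3 and 44.9 to 50.6 FPKM in the rest. That of the isocortex markers was 133 against 53.7 to 64.4 FPKM. Corn oil library 3 was shifted in the same directions by less. Its medians were -0.43 for the granule neuron, -0.19 for the CA1 and -0.12 for the CA2 and CA3 markers, and 0.18 and 0.39 for the isocortex and striatal markers. Defining hippocampal markers were still present in BBP library 1, with Prox1 of granule neurons at 3.71 FPKM and Fibcd1 of CA1 at 11.7, against 5.32 to 10.8 and 19.6 to 29.5 FPKM in the others. Not every marker followed its list median there. Pdzd2 of granule neurons (2.74 FPKM) and Coch of CA2 and CA3 (8.99) were highest in BBP library 1, against 2.08 to 2.67 and 1.21 to 4.56 FPKM. Mpped1 of CA1 (50.2) was above every control, and Fezf2 of isocortex (11.1) was lowest, against 11.5 to 17.2 FPKM. The medians of 6 pan-neuronal and 8 interneuron markers differed from the corn oil mean by no more than 0.12 and 0.19 in any treated library. The 7 oligodendrocyte markers summed to 804 and 812 FPKM in BBP libraries 1 and 2 against 505 to 689 FPKM elsewhere, and the 5 choroid plexus markers to 371 FPKM in corn oil library 3 against 48.9 to 119 FPKM elsewhere. No marker in these lists was at 0 in every library. The deposited counts summed to between 62477604 and 68422361 per library, and mitochondrial transcripts took 11.5% of them in BBP library 2 against 7.11% to 8.57% elsewhere.

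BBP library 1 was the lowest of the 6 libraries for 5 of the 10 AMPA receptor genes and the highest for 3 more. It was lowest or highest for 42.4% of all genes tested, and BBP library 2 was for 51.4% of all genes but for 4 of the 10. All 10 genes varied more within BBP than within corn oil on the log2 CPM scale, as did 71.0% of all genes tested. Comparisons between the groups are therefore given with and without BBP library 1. The part that the regional markers play in the values of that library was not tested, and in bulk tissue fewer cells of a type and less RNA per cell cannot be told apart.

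**Figure D1:**
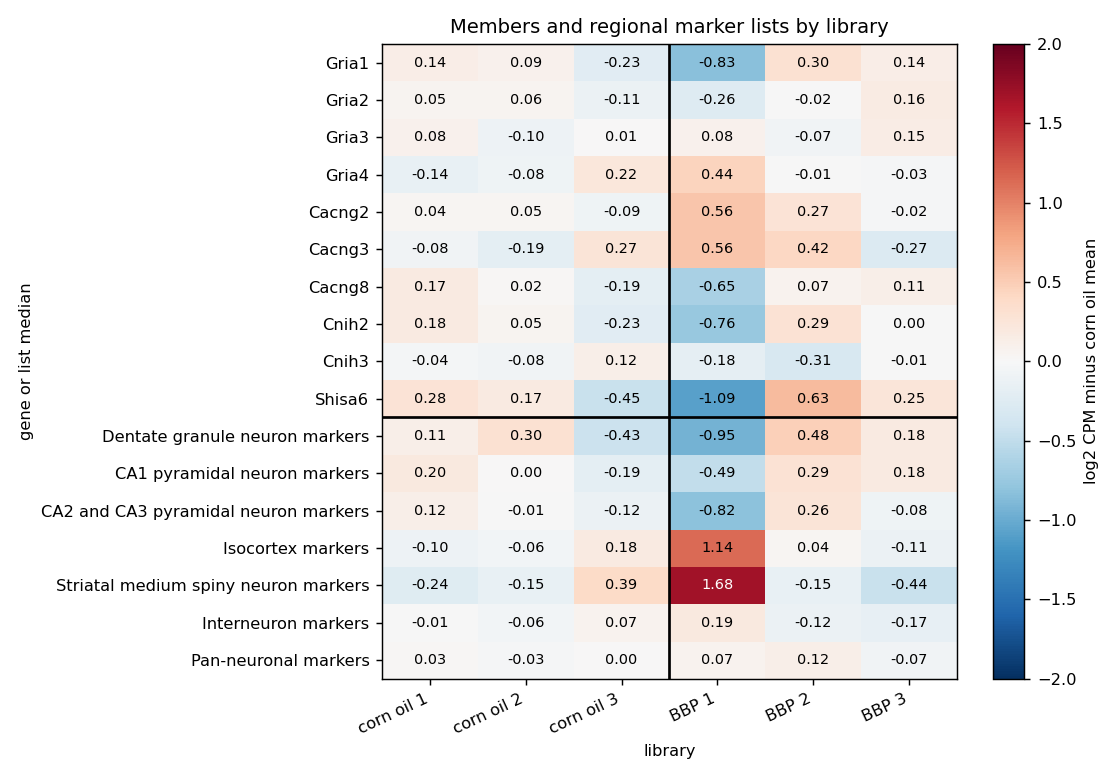
Each cell gives the log2 CPM of a gene (upper 10 rows), or the median over a marker list (lower 7 rows), minus the corn oil mean, for the 6 libraries in columns. BBP library 1 is low for Shisa6 (-1.09), Gria1 (-0.83), Cnih2 (-0.76) and Cacng8 (-0.65), where the 3 hippocampal field lists are low, and high for Cacng2 and Cacng3 (0.56 each) and Gria4 (0.44), where the isocortex and striatal lists are high.

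The 10 genes spanned a wide range of levels in corn oil. Cnih2 was the highest at 240 FPKM and Gria1 followed at 117 FPKM. Cacng8 and Gria2 came next at 36.7 and 36.4 FPKM, and Cacng3 and Cnih3 at 25.5 and 24.3 FPKM. Gria3 stood at 17.2, Shisa6 at 14.2, Gria4 at 10.7 and Cacng2 at 8.71 FPKM. Cnih2 was above Gria1, and Gria1 above Cacng8, in all 6 libraries. Gria2 was above Cacng3 in 5 of the 6, the exception being BBP library 1. Within 4 neighbouring pairs the corn oil ranges overlapped (Cacng8 and Gria2, Cacng3 and Cnih3, Gria3 and Shisa6, Shisa6 and Gria4), so their order is not beyond the spread between libraries. FPKM is per length, and the length behind it was unusual for some genes, as described with the subunit shares.

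**Figure D2:**
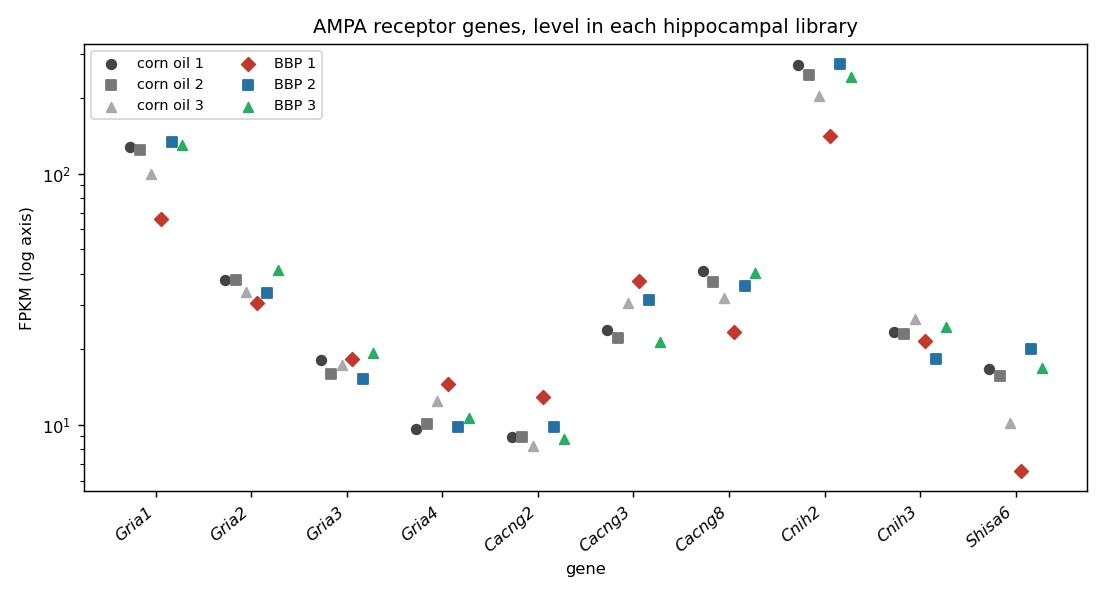
FPKM on a log axis for the 10 genes, 1 point per library, with corn oil libraries in greys and BBP libraries in colour. Gria1 in BBP library 1 is at 65.7 FPKM while the other 5 libraries lie between 99.7 and 134 FPKM, and Cacng2 in that library is at 12.9 FPKM against 8.21 to 9.77 FPKM.

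Among the subunits, Gria1 showed the widest gap between libraries. Gria1 (chromosome 11, 57011387 to 57330244, plus strand) encodes GluA1, the subunit whose recruitment to synapses accompanies long-term potentiation. Its level was 128, 124 and 99.7 FPKM in corn oil libraries 1 to 3 and 65.7, 134 and 130 FPKM in BBP libraries 1 to 3. BBP library 1 was thus at 0.561 of the corn oil mean, and BBP libraries 2 and 3 were above every control in FPKM. On the log2 CPM scale BBP library 3 and corn oil library 1 were both 0.14 above the corn oil mean. The group means were 117 ± 15.3 FPKM in corn oil and 110 ± 38.5 FPKM in BBP (SD, n = 3). The log2 fold change was -0.06 ± 0.26 (SE) in edgeR's quasi-likelihood test, with a 95% interval of -0.66 to 0.54 (adjusted p = 0.988). Without BBP library 1 it was 0.21 ± 0.13, in the other direction (adjusted p = 0.727 in the same edgeR test).

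Gria2 (chromosome 3, 80681450 to 80802835, minus strand) encodes the subunit that limits calcium entry. It measured 37.6, 37.8 and 33.8 FPKM in corn oil and 30.5, 33.6 and 41.5 FPKM in BBP libraries 1 to 3. The treated values ran from below the lowest control to above the highest, so the groups overlapped. Its log2 fold change was -0.03 ± 0.12 (edgeR adjusted p = 0.988), and it turned to 0.07 ± 0.10 without BBP library 1.

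Gria3 (chromosome X, 41400854 to 41676592, plus strand) encodes GluA3, which pairs with GluA2 in a pool of receptors independent of GluA1. Its levels of 18.1, 16 and 17.4 FPKM in corn oil and 18.3, 15.3 and 19.3 FPKM in BBP lay close together, with the groups overlapping. The log2 fold change was 0.06 ± 0.09, with a 95% interval of -0.15 to 0.27, in edgeR (adjusted p = 0.966), and it was 0.04 ± 0.10 without BBP library 1.

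Gria4 (chromosome 9, 4417896 to 4796234, minus strand) encodes the fast-gating subunit of interneurons. It was measured at 9.62, 10.1 and 12.5 FPKM in corn oil and at 14.5, 9.85 and 10.7 FPKM in BBP libraries 1 to 3. Only BBP library 1 exceeded the highest control, and the other treated libraries lay within the control range. A log2 fold change of 0.14 ± 0.15 (edgeR adjusted p = 0.954) became -0.03 ± 0.12 without that library.

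The 3 TARP genes had fold changes of both signs, none past the test. Cacng8 (chromosome 7, 3390683 to 3415648, plus strand), which encodes gamma-8, was at 41.1, 37.0 and 32.0 FPKM in corn oil and at 23.4, 35.9 and 40.1 FPKM in BBP libraries 1 to 3. BBP library 1 was below all controls and the other treated libraries were among them. This gave a log2 fold change of -0.12 ± 0.20 (edgeR adjusted p = 0.965), which was 0.08 ± 0.11 without BBP library 1.

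Cacng2 (chromosome 15, 77991748 to 78120028, minus strand), which encodes stargazin, was at 8.96, 8.97 and 8.21 FPKM in corn oil and at 12.9, 9.77 and 8.75 FPKM in BBP libraries 1 to 3. BBP libraries 1 and 2 exceeded every control and BBP library 3 did not. Its log2 fold change of 0.29 ± 0.14, with a 95% interval of -0.04 to 0.61, had the smallest unadjusted p of the 10 genes (adjusted p = 0.953 in edgeR's quasi-likelihood test, 0.0750 before adjustment). It was 0.13 ± 0.11 without BBP library 1.

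Cacng3 (chromosome 7, 122670492 to 122769393, plus strand) encodes gamma-3, the close relative of stargazin that is most abundant in the neocortex. It was at 23.9, 22.1 and 30.4 FPKM in corn oil and at 37.3, 31.5 and 21.3 FPKM in BBP libraries 1 to 3, so that treated libraries held both the highest and the lowest value. Its estimated log2 fold change was 0.27 ± 0.21 (edgeR adjusted p = 0.953) and 0.10 ± 0.20 without BBP library 1. Without BBP library 3 instead, the log2 fold changes of Cacng2 and Cacng3 were 0.42 and 0.48.

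Cornichon proteins export AMPA receptors from the endoplasmic reticulum and slow their closing. Cnih2 (chromosome 19, 5092868 to 5098521, minus strand) was at 269, 247 and 204 FPKM in corn oil and at 141, 272 and 242 FPKM in BBP libraries 1 to 3. BBP library 1 was at 0.588 of the corn oil mean, and the other treated libraries were close to or within the control range. edgeR gave a log2 fold change of -0.10 ± 0.24 (adjusted p = 0.977) and 0.14 ± 0.14 without BBP library 1.

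Cnih3 (chromosome 1, 181352628 to 181460641, plus strand) had another pattern across libraries than Cnih2. It was at 23.5, 23.0 and 26.5 FPKM in corn oil and at 21.5, 18.2 and 24.5 FPKM in BBP libraries 1 to 3, with BBP library 2 the lowest. The log2 fold change of -0.17 ± 0.10 (edgeR adjusted p = 0.953) was almost the same without BBP library 1, at -0.16 ± 0.11. It was negative in each fit that left out 1 library, from -0.25 to -0.10. Gria3, Cacng2 and Cacng3 likewise kept their sign, above 0, in each of these fits. The fits share most of their libraries and are not independent.

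Shisa6 (chromosome 11, 66211725 to 66525964, minus strand) encodes a membrane protein that keeps AMPA receptors at the postsynaptic density. It had the widest relative range of the 10, at 16.8, 15.6 and 10.2 FPKM in corn oil and 6.55, 20.0 and 16.8 FPKM in BBP libraries 1 to 3. BBP library 1 held the lowest value and BBP library 2 the highest. Corn oil library 3 was the lowest control, as it also was for Gria1, Gria2, Cacng2, Cacng8, Cnih2 and the dentate granule neuron markers. In edgeR the log2 fold change was 0.06 ± 0.38, with a 95% interval of -0.82 to 0.94 (adjusted p = 0.991), and 0.42 ± 0.21 without BBP library 1 (edgeR adjusted p = 0.711). Its sign was negative in limma on log2(FPKM + 1), at -0.07.

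At a Benjamini-Hochberg adjusted p under 0.05, edgeR called 0 of the 10 genes, against 0% of all 20428 genes tested. At an unadjusted p under 0.05 there were likewise 0 of the 10 in edgeR, against 3.35% of all genes. DESeq2 also called 0 of the 10 at an adjusted p under 0.05, against 0.00943% of all genes, and limma called 0. In 0 of the 10 did the treated and control libraries lie apart in CPM without overlap, which 10.4% of all genes did. The log2 fold change was above 0 for 5 of the 10, against 52.4% of all genes, and the median was 0.01 for the 10 and 0.01 for all genes. The 95% interval lay within 2-fold in either direction for all 10 genes, as it did for 69.9% of all genes. Without BBP library 1 the log2 fold change was above 0 for 8 of the 10, against 51.1% of all genes, with a median of 0.09. In that fit 0 of the 10 had an unadjusted p under 0.05 in edgeR, against 7.00% of all genes. Leaving out BBP library 3 instead brought Cacng2, Cacng3 and Cnih3 to an unadjusted p under 0.05, with a smallest adjusted p of 0.624 in edgeR among the 10. In that fit 7.26% of all genes had an unadjusted p under 0.05.

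**Figure D3:**
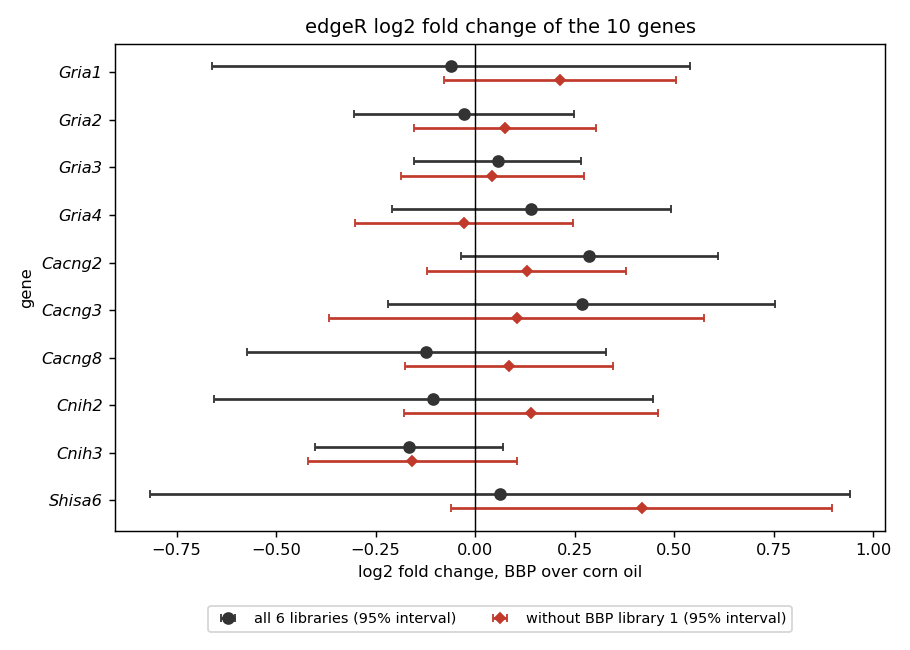
edgeR log2 fold change (BBP over corn oil) of the 10 genes with 95% intervals, from all 6 libraries (circles) and from the 5 libraries without BBP library 1 (diamonds). All 20 intervals include 0, and Gria1, Gria2, Gria4, Cacng8 and Cnih2 change sign between the fits.

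The promoters of a gene from each side are shown, Cnih2 (low in BBP library 1) and Gria4 (high in it). They are the 250 bases before the RefSeq gene start (GRCm38.p6), on the gene's strand, at chr19:5098522-5098771 (minus strand) for Cnih2 and chr9:4796235-4796484 (minus strand) for Gria4. Capitals mark GC boxes (GGGCGG on either strand), the element bound by Sp-family factors.
Cnih2: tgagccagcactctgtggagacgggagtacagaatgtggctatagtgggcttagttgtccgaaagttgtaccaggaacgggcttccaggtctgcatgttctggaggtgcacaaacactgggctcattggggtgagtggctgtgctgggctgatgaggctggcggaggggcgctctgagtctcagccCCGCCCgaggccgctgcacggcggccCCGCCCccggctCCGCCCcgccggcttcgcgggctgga
Gria4: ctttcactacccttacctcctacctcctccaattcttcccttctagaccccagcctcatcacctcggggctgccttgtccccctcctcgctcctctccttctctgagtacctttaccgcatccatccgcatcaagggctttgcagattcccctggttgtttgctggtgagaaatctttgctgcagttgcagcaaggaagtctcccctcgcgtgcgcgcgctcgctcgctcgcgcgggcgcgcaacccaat
The Cnih2 window held 3 GC boxes and 17 CpG dinucleotides, and the Gria4 window 0 GC boxes and 16 CpG dinucleotides. A GC box was found in 32.9% of 27025 promoter windows of this length and in 2 of the 7 members with a window, Cnih2 and Cnih3. The windows of Cacng2, Cacng3 and Cacng8, each with 0 GC boxes, lie inside the deposited extent of the gene and not before its start. Neither the Cnih2 nor the Gria4 window held TATAAA or TGACGTCA (on either strand), which 13.0% and 1.62% of all windows did. The median window held 6 CpG dinucleotides. Gria2 and Cacng8, also lowest in BBP library 1, had 0 GC boxes like Gria4, and Gria1 and Shisa6 had no window. These matches describe the sequence only.

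The make-up of the subunit mRNAs was then compared as the share of each gene in the summed FPKM of Gria1 to Gria4. Gria1 took 66.2%, 66.0% and 61.0% in corn oil libraries 1 to 3 and 50.9%, 69.6% and 64.6% in BBP libraries 1 to 3. The Gria2 share was 19.5%, 20.1% and 20.7% in corn oil and 23.7%, 17.4% and 20.5% in BBP. Gria3 took 9.38%, 8.52% and 10.6% in corn oil and 14.1%, 7.92% and 9.58% in BBP. The share of Gria4 was 4.97%, 5.36% and 7.65% in corn oil and 11.3%, 5.11% and 5.28% in BBP. BBP library 1 had the lowest Gria1 share and the highest share of each other subunit. On average the Gria1 share was 2.70 percentage points lower in BBP and the Gria2, Gria3 and Gria4 shares were 0.446, 1.04 and 1.22 points higher. None of these differences exceeded the spread between libraries (exact permutation tests, two-sided, p = 0.8 for Gria1 to Gria3 and 0.7 for Gria4, adjusted p = 0.8 over the 4 shares, where 3 against 3 cannot go below 0.1). All 4 changed sign without BBP library 1, to 2.68, -1.12, -0.761 and -0.801 points.

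These shares depend on the gene length used, which was read back from the deposited counts and FPKM. For all 10 genes the ratio of count to FPKM followed the summed length of all annotated exons, with the same factor of 1.11 for each. That summed length includes retained introns, and it was 1.5 times the longest coding transcript for Gria2 (15548 against 10371 bases) and 1.9 times for Gria3 (9859 against 5192 bases), but 1.09 times for Gria1. Dividing the counts by the longest coding transcript gave mean corn oil shares of 56.0% for Gria1, 24.0% for Gria2, 14.4% for Gria3 and 5.54% for Gria4. With the shortest coding transcript that holds the pore-loop stretch, which is 4026 bases for Gria2 and 5361 bases for Gria1, the shares were 37.7%, 40.3%, 18.2% and 3.76%. The place of Gria1 above Gria2 thus held for FPKM but not for the shorter Gria2 model. Comparisons of a gene between libraries do not depend on its length.

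**Figure D4:**
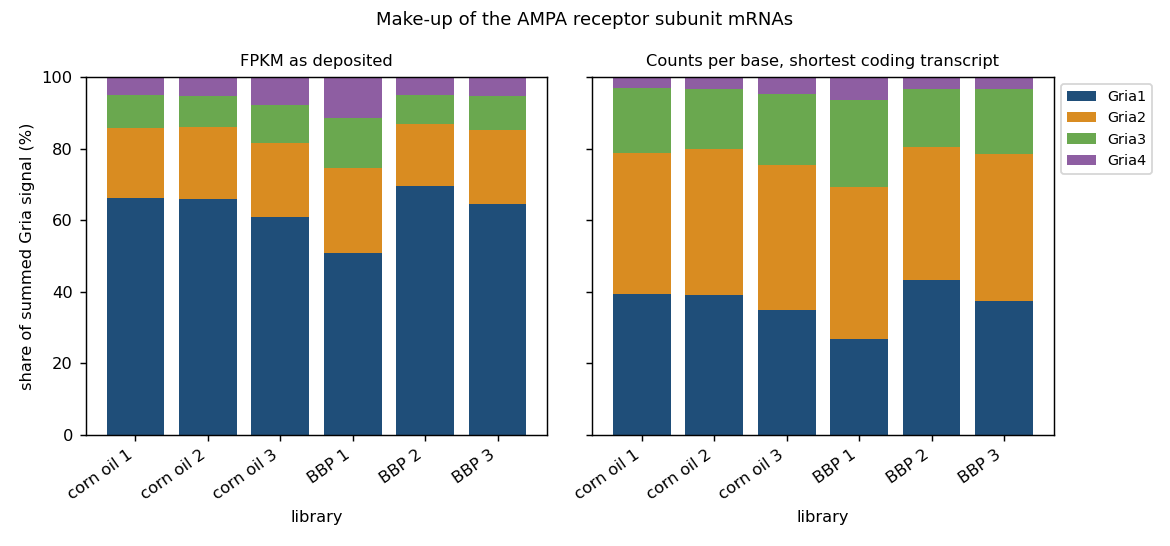
Share (%) of Gria1 to Gria4 in the summed subunit signal of each library, from FPKM as deposited (left) and from counts per base of the shortest coding transcript (right). Gria1 takes 50.9% to 69.6% of the signal on the left and 26.7% to 43.3% on the right, and in both panels its share is lowest in BBP library 1.

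Auxiliary mRNAs were next set against the subunits. The summed FPKM of Gria1 to Gria4 was 193, 188 and 163 in corn oil and 129, 193 and 202 in BBP libraries 1 to 3. The summed TARP level of Cacng2, Cacng3 and Cacng8 was even across libraries, at 73.9, 68.02 and 70.7 FPKM in corn oil and 73.6, 77.1 and 70.2 FPKM in BBP. In BBP library 1 a low Cacng8 level stood beside high Cacng2 and Cacng3 levels. TARP signal per subunit signal was 0.382, 0.362 and 0.432 in corn oil and 0.571, 0.400 and 0.348 in BBP, with BBP library 1 the highest. Cornichon signal per subunit signal was 1.51, 1.44 and 1.41 in corn oil and 1.26, 1.51 and 1.32 in BBP. The log2 differences between groups were -0.08 for the subunit sum, 0.06 for the TARP sum, -0.18 for the cornichon sum, 0.13 for TARPs per subunit and -0.10 for cornichons per subunit. The exact permutation test (two-sided) gave p = 0.9, 0.5, 0.6, 0.7 and 0.3 for these, and adjusted p of 0.875 to 0.9 over the 5 values. Without BBP library 1 the 5 differences were 0.12, 0.06, 0.08, -0.07 and -0.04.

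Among the 10 genes, Gria1, Cnih2 and Cacng8 had the most alike profiles over the libraries. Each profile over the 6 libraries was centred on its own mean log2 CPM, and likeness was measured as the Euclidean distance between profiles, a description in which all genes share the same libraries. Gria1 and Cnih2 were the closest pair at 0.16, followed by Cacng8 with Cnih2 at 0.28 and Gria1 with Cacng8 at 0.31. Cacng3 and Shisa6 were the farthest apart at 1.91. The candidates were 6921 genes at a mean of at least 5 FPKM, the 10 included and predicted or clone-named genes left out. Members were only 10 of the 6921 candidates, so a low count of them among the closest genes says little about their likeness. For each of the 10 the 3 closest candidates were listed, and 0 of these 30 were members. Among them Doc2b and Scn3b lay closest to Gria1 (0.10 and 0.11) and Gpr22 and Ncdn closest to Cacng8 (0.10 each). Doc2b encodes a calcium sensor of vesicle release and Scn3b a sodium channel beta subunit. Neurod2, a transcription factor gene of excitatory neurons, was closest to Cnih2 (0.13). Wipf3, Tgfb2 and Prox1 were the 3 closest to Shisa6 (0.15, 0.21 and 0.26). Npy, a neuropeptide gene of interneurons, was closest to Cacng3 (0.15), Car2 to Cacng2 (0.13) and Tmem141 to Gria4 (0.10). Mtmr1, Zfand2a and Nagk were closest to Gria2, Gria3 and Cnih3 (0.04, 0.05 and 0.06).

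Other genes of the AMPA receptor pathway were read from 2 further lists. Of 18 other auxiliary genes, all tested, 14 had a log2 fold change above 0, against 52.4% of all genes. Their median was 0.08 (0.13 without BBP library 1). At an adjusted p under 0.05 edgeR called 0 and at an unadjusted p under 0.05 it called 1, against 0% and 3.35% of all genes. Without BBP library 1, 13 were above 0 and 2 had an unadjusted p under 0.05 in edgeR, against 51.1% and 7.00% of all genes. Syndig1, which encodes a synapse differentiation protein that binds AMPA receptors, had the smallest p in this list. It stood at 10.2, 9.96 and 8.73 FPKM in corn oil and 12.8, 10.8 and 10.6 FPKM in BBP libraries 1 to 3, every treated library above every control. Syndig1 was the 1 gene of the 18 whose groups did not overlap in CPM, against 10.4% of all genes. Its log2 fold change was 0.27 ± 0.11 (unadjusted p = 0.0446 and adjusted p = 0.953 in edgeR), and 0.19 without BBP library 1. Cacng7, the gene of the TARP gamma-7, was at 49.0, 50.7 and 58.0 FPKM in corn oil and 63.7, 72.3 and 51.7 FPKM in BBP, with a log2 fold change of 0.28 ± 0.15 (edgeR adjusted p = 0.953), and 0.29 without BBP library 1. Of the most abundant genes in the list, Olfm1, which encodes the secreted protein noelin, averaged 274 ± 14.1 FPKM in corn oil and 259 ± 22.9 FPKM in BBP (SD, n = 3), a log2 fold change of -0.05, or 0.02 without BBP library 1. Prrt1, which encodes a proline-rich AMPA receptor partner, was at 92.5 to 105 FPKM in corn oil and at 79.0, 182 and 93.5 FPKM in BBP libraries 1 to 3, with BBP library 2 the highest of the 6. Its log2 fold change was 0.29 ± 0.30 with all libraries and 0.52 without BBP library 1.

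Of 17 trafficking, scaffolding, clustering and editing genes, 12 had a log2 fold change above 0, against 52.4% of all genes. Their median was 0.09 (0.02 without BBP library 1). edgeR called 0 at an adjusted or an unadjusted p under 0.05, against 0% and 3.35% of all genes. Without BBP library 1, 10 were above 0 and 3 of the 17 had an unadjusted p under 0.05 in edgeR, against 51.1% and 7.00% of all genes. Epb41l1, the gene of the 4.1N protein that anchors GluA1 to actin, was at 33.3, 33.3 and 31.6 FPKM in corn oil and 36.3, 35.5 and 35.2 FPKM in BBP libraries 1 to 3. The groups did not overlap, and the log2 fold change was 0.15 ± 0.08 (edgeR adjusted p = 0.953), with 0.15 also without BBP library 1. Rab11a, which encodes a GTPase of recycling endosomes, was at 33.2 to 34.0 FPKM in corn oil and at 32.9, 21.8 and 31.5 FPKM in BBP, with the lowest value in BBP library 2. Every treated library lay below every control, and the log2 fold change was -0.21 ± 0.13 (edgeR adjusted p = 0.953), or -0.30 without BBP library 1. These were the 2 of the 17 genes whose groups did not overlap in CPM, against 10.4% of all genes. The kinase gene Camk2a averaged 361 ± 27.6 and 393 ± 85.7 FPKM (SD, n = 3), and the neuronal pentraxin receptor gene Nptxr 193 ± 16.3 and 166 ± 24.9 FPKM. Their log2 fold changes were 0.15 and -0.20 with all libraries, and 0.33 and -0.06 without BBP library 1. Adarb1, the editing enzyme of the Q/R site, was measured at 11.4 ± 0.499 and 11.9 ± 1.18 FPKM (log2 fold change 0.08, or 0.02 without BBP library 1) and was chosen for its role, not by its values.

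The other ionotropic glutamate receptors were read from lists of NMDA and kainate receptor genes. Of 7 NMDA receptor genes 6 had a log2 fold change above 0, and of 5 kainate receptor genes 3 did, against 52.4% of all genes. The medians were 0.01 and 0.02. edgeR called 0 at an adjusted p under 0.05, against 0% of all genes. At an unadjusted p under 0.05 it called 1 kainate receptor gene, Grik3 (named after its values were seen), against 3.35% of all genes. Without BBP library 1 the medians were 0.10 for the NMDA and -0.01 for the kainate receptor genes. In that fit 5 of 7 and 2 of 5 were above 0, against 51.1% of all genes. In BBP library 1 the list medians relative to the corn oil mean were -0.22 for the 10 AMPA receptor genes, -0.19 for the NMDA and -0.14 for the kainate receptor genes. The difference between these lists was not tested.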

How the data were processed

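Polyadenylated RNA was made into dUTP-marked paired-end libraries with molecular identifiers, per the labels' protocols. Among the tools in the submitters' processing notes are StringTie 2.1.6, HISAT2 2.2.1 and cutadapt 1.9, with the build mm10. How each was used and which strand was counted is not given in the sources used here; antisense partners cannot be told apart. The authors deposited 1 table of estimated counts, as whole numbers, and FPKM values. An excess of genes at 4 counts means that a count need not be 1 fragment.

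The counts were fitted with edgeR 4.0.16 in R 4.3.3 (filterByExpr, TMM, quasi-likelihood F test, treatment only, Benjamini-Hochberg over 20428 genes). Standard errors were taken from the fold change and its F statistic. FPKM was used as deposited for levels, shares and sums, with exact permutation tests over libraries. Alternatives were DESeq2 1.42.0, limma 3.58.1 on log2(FPKM + 1) or log2(FPKM + 0.1), other filters and scalings, a replicate block and fits without each library. After the values were seen, 2 other gene lengths were added. In simulated data with the libraries' dispersions, edgeR recovered 11 of 50 genes changed 1.5-fold, 20 of 50 at 2-fold and 46 of 50 at 8-fold, among 19911 genes tested, and called 4 unchanged genes. The simulation drew genes independently with the same dispersion in both groups, while 71.0% of all genes tested varied more within BBP. Members and lists were chosen with earlier results of these data known. The text names all 10 members, the closest genes to each member, and in the 2 further lists the genes with the smallest p and the highest FPKM.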

Additional observations from a re-analysis of the deposited data

How the results depend on the processing

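The count of 0 genes called by edgeR over all genes was 0 in every edgeR and limma fit with all libraries and 3 in DESeq2 (Gm2274, Vcp-rs and Gm2004, named after their values were seen). In the fits without 1 library it ranged from 0 to 3, with 3 without BBP library 1 (Commd1b, Gm45062 and Scgb1a1) and 1 without corn oil library 2 (Zbtb12), and none of these is an AMPA receptor gene. The number at an unadjusted p under 0.05 was 685 in the main edgeR fit, 494 to 902 in the other edgeR and DESeq2 fits and up to 1068 in limma with all libraries and 393 to 1530 in those without 1 library. The members above 0 ranged from 4 to 8 of 10 and their median from -0.09 to 0.09 in the fits without 1 library. The median was 0.01 in the main fit but -0.04 with the replicate block and -0.07 in the 3 limma fits. With the replicate block 4 of the 10 were above 0, edgeR called 0 genes, and 494 had an unadjusted p under 0.05. The deviations of same-numbered libraries correlated at -0.08, 0.08 and -0.10 across genes, and those of differently numbered libraries at -0.07 to 0.15. With 3 libraries a group these values cannot decide whether the numbers pair the libraries, and the labels state no block.

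Shisa6 had a log2 fold change of -0.047 with the replicate block, -0.09 in limma with a pseudocount of 0.1 and -0.075 in the other limma fits. In the fits without 1 library it ranged from -0.30 to 0.42, Gria1 from -0.28 to 0.21, Gria2 from -0.134 to 0.075, Gria4 from -0.029 to 0.263, Cacng8 from -0.25 to 0.085 and Cnih2 from -0.34 to 0.14, the highest values except for Gria4 being those without BBP library 1. Without 1 library the group difference in share ranged from -6.64 to 2.68 percentage points for Gria1, -1.12 to 2.01 for Gria2, -0.761 to 2.35 for Gria3 and -0.801 to 2.27 for Gria4. The Gria2 share difference was -0.0884 points with the shortest coding transcript. On the log2 scale the subunit sum ranged from -0.199 to 0.124, the cornichon sum from -0.338 to 0.0802 and TARPs per subunit from -0.0691 to 0.288. Within replicate numbers, as a replicate block, sign-flip tests of the shares and sums gave p of 0.5 to 1, where 0.25 is the smallest possible. With 3 libraries a group, edgeR recovered 11 of 50 simulated 1.5-fold and 20 of 50 simulated 2-fold differences, among 19911 genes tested. The simulated libraries held no shift of many genes together like that of the regional markers in BBP library 1. Recovery for the 10 AMPA receptor genes themselves was not tested. Their SE of the log2 fold change ran from 0.09 (Gria3) to 0.38 (Shisa6) in the main edgeR fit.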
